A study of Arabidopsis thaliana with 47 samples.

Results

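Pericentromeric MORC7 regions are the stretches around the 5 Arabidopsis centromeres that MORC7, a chromatin ATPase of the Microrchidia family, occupied in wild-type plants. Peaks of the 3 wild-type MORC7-FLAG lists were taken where the fold enrichment exceeded 2 at q below 0.01. They were merged, and merged regions with a peak in at least 2 lists were kept, which gave 6424 MORC7 regions. Of these, 2094 (32.6%) had a midpoint within 3 Mb of the chromosome centre and are the subject here. The windows ran from 12.09 to 18.09 Mb on chromosome 1, 0.61 to 6.61 Mb on chromosome 2, 10.59 to 16.59 Mb on chromosome 3, 0.96 to 6.96 Mb on chromosome 4 and 8.73 to 14.73 Mb on chromosome 5. The other 4330 regions are called arm regions. A window edge is a distance and not a boundary of chromatin: the last region inside, on chromosome 5, had a peak in 6 of 9 RdDM mutant lists and a mean wild-type fold enrichment of 2.98, and the first outside, on chromosome 4, had a peak in 2 and a value of 3.37.

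The labels give the strain as Columbia-0 where they give one, and floral tissue of 5 to 6 weeks. For RNA-seq the authors' methods instead give an age of 3 weeks, so the age of those plants is not settled. MORC7-FLAG is a MORC7 transgene under its own promoter with a FLAG tag, in the morc7-1 mutant. It was crossed into nrpd1-4, nrpe1-11, the double mutant of both and dms3-4, whose progeny were homozygous for the mutation but could carry 1 or 2 copies of the transgene. It was also profiled in met1-3. The mutants are written below without their allele numbers. The MORC7 lists used were 3 in wild type, 2 in nrpd1, 2 in nrpe1, 2 in nrpd1 nrpe1, 3 in dms3 and 1 in met1. There were 2 lists of MORC4-FLAG in morc4-1 and 2 of FLAG in untagged wild type. Plants with both MORC7-FLAG and ZF108-DMS3-HA gave 1 of HA and 1 of FLAG. The HA control was 1 list of HA in plants with MORC7-FLAG but without the HA fusion. RNA polymerase II (Pol II) had 1 list in each of wild type and hex. The hex mutant combines morc1-2, morc2-1, morc4-1, morc5-1, morc6-3 and morc7-1. RNA-seq held 3 libraries each of wild type and of plants labelled hex and nrpe1.

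RNA-directed DNA methylation (RdDM) is the plant pathway in which small RNAs direct DNA methylation to transposons and repeats. RNA polymerase IV, whose largest subunit is NRPD1, makes the precursors of the small RNAs; RNA polymerase V, whose largest subunit is NRPE1, makes the scaffold transcripts at the target; and DMS3 belongs to the complex that brings polymerase V to chromatin. MET1 copies CG methylation onto new DNA strands. Pericentromeric chromatin of Arabidopsis is rich in transposons and heavily methylated, and MORC proteins are known to help keep such sequences silent.

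Several members are shown as sequence, each a window of 200 bases around the highest wild-type summit, on the plus strand of TAIR10, with CG sites, the substrate of MET1, in capitals. They are the member nearest the centre of chromosome 2, the tallest member in wild type, one of the members at the ceiling of the met1 list and the tallest one with no met1 entry, both among members with a peak in all 9 RdDM mutant lists, the member with the tallest Pol II peak seen in hex alone, and a member with the tallest HA peak in ZF108-DMS3 plants.
region 2.1862 at chr2:3595098-3595297: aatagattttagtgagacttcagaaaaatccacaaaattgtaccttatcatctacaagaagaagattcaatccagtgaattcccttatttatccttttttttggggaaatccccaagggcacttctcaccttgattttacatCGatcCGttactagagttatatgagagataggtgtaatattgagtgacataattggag
region 4.4260 at chr4:3659199-3659398: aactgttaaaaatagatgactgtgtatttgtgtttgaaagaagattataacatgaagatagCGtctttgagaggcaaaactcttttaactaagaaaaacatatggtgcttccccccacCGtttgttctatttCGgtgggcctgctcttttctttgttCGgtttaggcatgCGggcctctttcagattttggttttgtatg
region 5.5708 at chr5:13213143-13213342: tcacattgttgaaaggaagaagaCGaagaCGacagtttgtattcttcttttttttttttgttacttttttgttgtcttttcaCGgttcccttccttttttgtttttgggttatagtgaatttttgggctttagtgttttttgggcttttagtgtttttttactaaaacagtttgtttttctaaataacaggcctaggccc
region 4.4352 at chr4:5252300-5252499: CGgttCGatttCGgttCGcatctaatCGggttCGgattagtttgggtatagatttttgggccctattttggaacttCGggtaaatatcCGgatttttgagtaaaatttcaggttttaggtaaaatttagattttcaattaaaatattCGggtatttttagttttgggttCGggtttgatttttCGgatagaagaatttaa
region 3.3303 at chr3:11480074-11480273: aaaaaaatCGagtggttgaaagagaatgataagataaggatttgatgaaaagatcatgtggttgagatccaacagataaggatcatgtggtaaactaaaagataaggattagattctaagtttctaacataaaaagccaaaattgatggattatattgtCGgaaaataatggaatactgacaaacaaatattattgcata
region 3.3537 at chr3:15359591-15359790: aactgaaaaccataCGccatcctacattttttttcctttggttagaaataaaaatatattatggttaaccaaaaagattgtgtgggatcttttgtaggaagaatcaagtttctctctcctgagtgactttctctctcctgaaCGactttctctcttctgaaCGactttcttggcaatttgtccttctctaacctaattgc

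The 6 windows differed in their number of CG sites, from 2 in region 2.1862 and region 3.3303 to 11 in region 4.4352. Over all members the median was 3 CG sites in 200 bases, with quartiles of 2 and 5, and over arm regions it was 4, with quartiles of 2 and 7. Region 5.5708 lies in repeated sequence, where 23.5% of the 50-base runs that start in the window occur once in the genome, against 77% in region 3.3303 and 100% in the other windows shown.

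MORC7 regions were denser and wider around the centromeres than on the arms. The windows held 69.8 regions per Mb and the arms 48.6. The median width was 1625.5 bp in the windows and 904 bp on the arms, and regions covered 15.2% of window bases and 5.47% of arm bases. Chromosome 2 held the most members, 474, followed by 433 on chromosome 3, 426 on chromosome 4, 387 on chromosome 5 and 374 on chromosome 1. The median of the mean wild-type fold enrichment was 3.60 for members and 2.77 for arm regions. These values describe the lists that chose the regions and were not tested.

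Density was not highest at the centre itself. It was 25.2 regions per Mb within 0.25 Mb, reached 93.0 between 1.5 and 2 Mb and fell to 70.6 at 2.5 to 3 Mb, 69.6 just outside the window and 45.0 beyond 6 Mb. Only uniquely aligned reads were kept by the authors, and the share of 50-base runs that occur once in the genome was 55.6% in the innermost bin and 97.7% beyond 6 Mb. Counted per Mb of such unique sequence, density was still lowest within the inner 0.5 Mb among the bins of the windows, with 45.3 and 42.4 regions, and highest, 104.7, at 1.5 to 2 Mb.

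**Figure D1:**
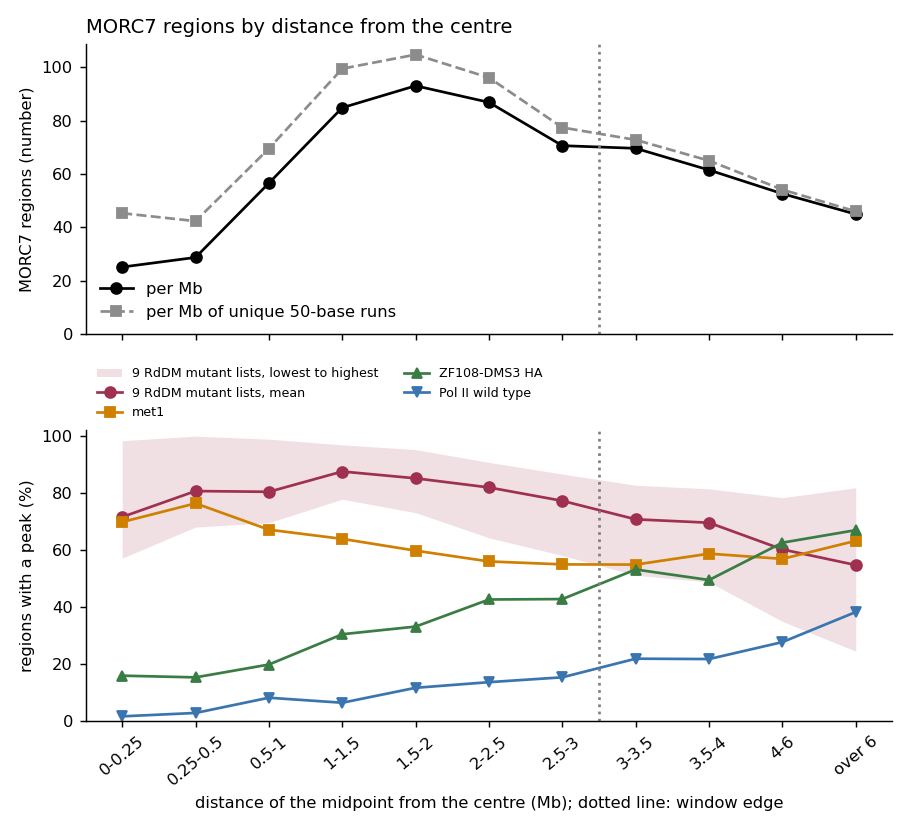
The upper plot gives MORC7 regions per Mb and per Mb of unique sequence against distance from the chromosome centre (Mb, in bins), and the lower plot the share of regions with a peak (%) in the RdDM mutants, met1, ZF108-DMS3 HA and wild-type Pol II. Density peaks at 1.5 to 2 Mb, RdDM mutant recovery falls outward from 1 to 1.5 Mb, and the HA and Pol II shares are lowest within 0.5 Mb and highest beyond 6 Mb.

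Members overlapped other annotation than arm regions did. In the RefSeq annotation, 41.1% of members and 60.2% of arm regions overlapped a protein-coding gene, and 24.0% and 3.90% overlapped a pseudogene with no coding gene. No gene was overlapped by 30.5% of members and 30.2% of arm regions. Overlap with transposons was not computed, because no transposon annotation was at hand, so these classes do not tell transposons apart. The highest summit lay between genes for 82.8% of members and 70.5% of arm regions, and in a coding exon for 1.19% and 3.05%. Median GC content was 31.6% in members and 33.1% in arm regions, against 36.6% over 1 kb tiles of both windows and arms. Median CG density was 19.3 and 20.3 per kb, against 21 in the tiles of both.

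The 3 wild-type lists did not see members alike. Replicates 1 and 3 held peaks at 98.7% and 98.7% of members, and replicate 2 at 45.5%, against 66.5% of arm regions. The list of replicate 2 held short peaks, of median width 163 bp, against 649 and 981 bp in the others. Accordingly, 1142 members (54.5%) rested on replicates 1 and 3 alone and 897 (42.8%) on all 3 lists, while 28 rested on replicates 1 and 2 and 27 on 2 and 3. Wild-type replicate 1 and dms3 replicates 2 and 3 were deposited in another list form, in which some peaks are entered more than once and the −log10 q starts at 2. FLAG ChIP of untagged plants gave a peak at 0.0955% and 4.01% of members, beside 0.233% and 1.74% of all 6424 regions. The 22 lists held from 8 to 17271 peaks past the thresholds, with a median of 6446.5. Read totals are not known for any library.

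**Figure D2:**
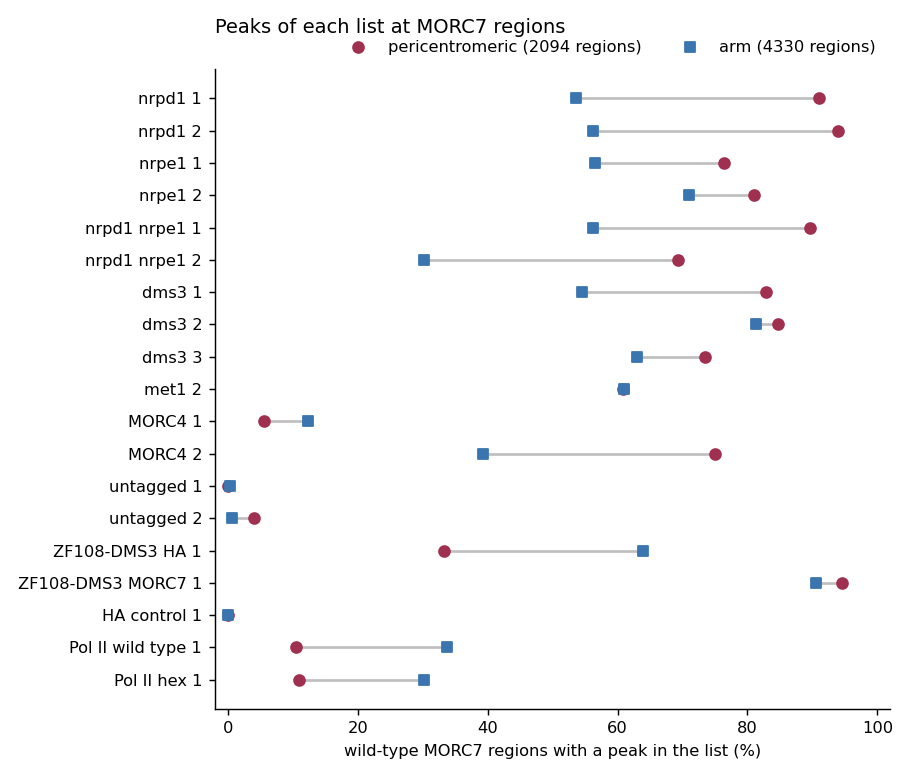
For each list that did not choose the regions, the share of pericentromeric (circles) and arm (squares) MORC7 regions with a peak (%) is shown, with the replicate number after the group. In all 9 RdDM mutant lists the circle lies to the right of the square, at met1 the 2 coincide, and in the HA list, both Pol II lists and MORC4 replicate 1 the circle lies to the left.

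MORC7 peaks remained at most pericentromeric regions in every RdDM mutant. Plants without the largest subunit of polymerase IV, nrpd1, had them at 91.0% and 94.0% of members, beside 65.8% and 68.5% of all regions. Loss of the polymerase V subunit left them at 76.4% and 80.9%, beside 63% and 74.3%. The double mutant held them at 89.6% and 69.3%, beside 67.1% and 42.9%. The 3 dms3 lists held them at 82.9%, 84.8% and 73.4%, beside 63.7%, 82.4% and 66.4%. Arm recovery ran from 30.2% in nrpd1 nrpe1 replicate 2 to 81.2% in dms3 replicate 2.

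Each of the 9 mutant lists recovered a larger share of members than of arm regions, by 3.52 points in dms3 replicate 2 to 39.1 points in nrpd1 nrpe1 replicate 2. The mean difference was 24.4 points (p = 0.00391, exact two-sided sign-swap permutation over 9 libraries, the smallest p that 9 libraries can give). The p-values here measure the spread between these libraries, all scored on the same regions, and do not cover the choice of regions. Members were also taller and wider in the wild-type lists that chose them, and the p does not separate position from height or width. Among regions of 500 to 1500 bp the difference was 16.5 points (p = 0.0195, exact permutation). It was smaller among wider regions. Mean recovery over the 9 lists was 88.0% of members and 82.4% of arm regions at 1500 to 2500 bp. Above 2500 bp, a width of 28.8% of members and 5.59% of arm regions, it was 94.1% and 93.6%.

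Whether this excess belongs to the mutants was asked by scoring each wild-type list on regions that the other 2 wild-type lists both called. Each wild-type list thus had a set of its own, of 2849, 5324 and 3870 regions for replicates 1, 2 and 3. Each mutant list was given its mean over the 3 sets. The sets differ: nrpd1 replicate 1 gave 25.4, 23.6 and 45.9 points on them, so the wild-type spread also holds differences between sets. Wild-type replicates 1, 2 and 3 then gave differences between windows and arms of 1.83, −11.9 and 30.7 points, and the mutants a mean of 22.5 ± 12.2 (SD, n = 9). The mutants exceeded wild type by 15.6 points, which was within the spread of the wild-type lists (p = 0.141, adjusted p = 0.5, exact permutation, 9 libraries against 3). The next comparisons used 1 set each, that of the wild-type library compared. Among libraries that share a date with wild-type replicate 3, nrpd1 replicates 1 and 2 and nrpd1 nrpe1 replicate 1, the mutants gave 40.2 to 46.2 points against 30.7. Among lists of the form of wild-type replicate 1, dms3 replicates 2 and 3 gave 4.93 and 11.2 against 1.83. With 1 wild-type library in each, neither allows a test. Averaged over the 3 sets, the mutants of the shared date gave 31.6, 31.2 and 25.9 points, and dms3 replicates 2 and 3 gave 4.80 and 12.6. Wild-type replicate 3 decided the call: with its score left out, the mutants exceeded wild type by 22.0 points (p = 0.0182, exact permutation). That is the smallest p that 9 libraries against 2 can give, and replicate 3 still helped to define the region sets.

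Scored in the same way, 90.2% ± 4.95 (SD, n = 9) of members were recovered in the mutants and 79.4% ± 30.7 (SD, n = 3) in wild type, a difference of 10.8 points (p = 0.268, exact permutation). Wild-type replicate 2 decided its direction: with its score left out, the mutants were 3.62 points lower (p = 0.2, exact permutation). Replicate 2 still helped to define the region sets there. Within the shared date the mutants recovered 93.5% to 94.7% and wild type 97.3%, and within the shared list form 91.5% and 96.1% against 97.1%. Both used only the set of the wild-type library compared.

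The share of each list's peaks that lay in the windows was 43.0% ± 8.62 (SD, n = 9) in the mutants, from 29.4% to 57.4%, and 31.3% ± 9.72 (SD, n = 3) in wild type (p = 0.0818, exact permutation). Within the shared date it was 45.3% to 48.8% against 41.2%, and within the shared list form 29.4% and 35.3% against 31.0%. The log2 ratio of peak height in windows to that on arms was 0.76 ± 0.18 (SD, n = 9) in the mutants and 0.49 ± 0.38 (SD, n = 3) in wild type (p = 0.118, exact permutation). Within the shared date it was 1.15 to 1.20 against 0.89, and within the list form 0.66 and 0.68 against 0.44. Those ratios used only the set of the wild-type library compared. Averaged over the 3 sets, the mutants of the shared date gave 0.99, 0.98 and 0.94, and those of the list form 0.59 and 0.61. Neither the difference in window share nor that in height ratio passed the test. Both did with wild-type replicate 3 left out, at 16.6 points (p = 0.0364) and 0.38 (p = 0.0182, exact permutation). The height ratio then still used region sets that replicate 3 helped to define. The window share also passed without dms3 replicate 2, at 13.3 points (p = 0.0303, exact permutation).

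Recovery of single members was mostly complete. All 9 mutant lists held a peak at 1230 members (58.7%) and at 1061 arm regions (24.5%), and none did at 36 members (1.72%) and 358 arm regions (8.27%). Members in all 9 lists had a median width of 2200.5 bp and a median wild-type fold enrichment of 4.27, against 805 bp and 2.64 for the 36 in none. Along the windows, mean recovery over the 9 lists was 71.6% within 0.25 Mb of the centre, 87.6% at 1 to 1.5 Mb and 77.3% at 2.5 to 3 Mb. It did not differ much between chromosomes, from 79.3% on chromosome 4 to 84.3% on chromosome 2.

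**Figure D3:**
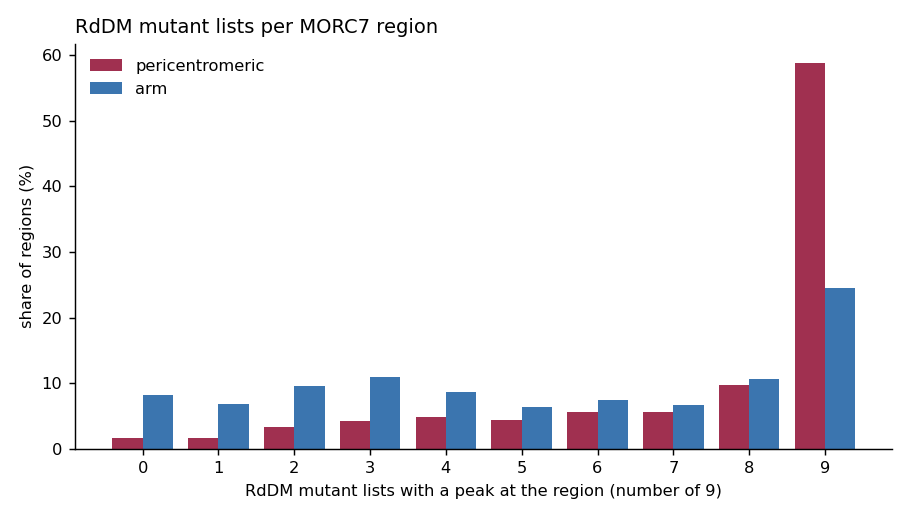
Bars give the share of pericentromeric and arm MORC7 regions (%) by the number of RdDM mutant lists, of 9, with a peak there. The bar at 9 lists holds 58.7% of pericentromeric and 24.5% of arm regions.

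Region 4.4260 on chromosome 4 (chr4:3654024-3660901), the tallest member in wild type, overlaps the pseudogenes AT4G06597 and AT4G06635, which were listed at 0 TPM in all 9 RNA libraries. Its fold enrichment was 6.10, 6.85 and 8.54 in wild type. In the RdDM mutants it was 11.5 and 9.69 for nrpd1, 16.8 and 6.56 for nrpe1, 8.62 and 13.9 for the double mutant, and 7.13, 6.62 and 6.57 for dms3. In met1 it was 3.79, below every other MORC7 list. Heights near the top of a list share a ceiling (in wild-type replicate 1, 54 members lie within 2% of the highest value over all regions, 6.13), so their order carries little information. Near the centre, region 2.1862 (chr2:3593266-3600615) held values of 2.89 and 4.99 in wild-type replicates 1 and 3, no peak in replicate 2, and a peak in 3 of the 9 mutant lists. In met1 it reached 5.77, above every wild-type and RdDM mutant list at that region.

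In met1, where CG methylation is lost, 60.9% of members kept a MORC7 peak (95% exact interval 58.8 to 63.0, counting error only), beside 61% of all regions. The arm value was 61.0%, a difference of −0.15 points from 1 library, which allows no test. Its sign was not stable: with members set without wild-type replicate 3 it was 6.16 points, and among regions of 500 to 1500 bp −13.1. With every deposited entry counted whatever its height, 75.5% of members and 81.2% of arm regions had one. Along the windows recovery was 69.8% within 0.25 Mb, 76.4% at 0.25 to 0.5 Mb and then lower in each bin, down to 55.0% at 2.5 to 3 Mb. Of the 1230 members in all 9 RdDM mutant lists, 930 (75.6%) had a met1 peak and 158 (12.8%) had no met1 entry at all. The members that kept it were wider (median 2493.5 against 1260.5 bp) and taller in wild type (4.54 against 3.61), with 18.9 and 19.9 CG per kb.

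Single members are named here for the highest met1 values or for having no met1 entry, so both directions follow from that choice. Region 5.5708 (chr5:13212798-13214052) stood at 2.89 and 3.96 in wild-type replicates 1 and 3 and at 3.70 to 7.66 in the RdDM mutants. In met1 it reached the ceiling of that list, 7.03. Region 2.1714, region 2.2030 and region 1.717 among others did so too, and 56 members lay within 2% of that ceiling. Region 2.2030 stood higher, at 8.12, in wild-type replicate 3. Region 4.4352 (chr4:5251880-5252953), which overlaps the protein-coding genes AT4G08310 and AT4G08320, stood at 5.92, 4.09 and 7.33 in wild type and at 2.79 to 7.07 in the RdDM mutants, with no entry in met1. Its window is the one above with 11 CG sites. Region 3.3332 on chromosome 3, at the pseudogene AT3G30122, held 5.29, 3.98 and 7.88 in wild type and 5.09 to 10.8 in the RdDM mutants, and no met1 entry.

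The met1 list also held many window peaks where wild type had none. Of its 2692 peaks in the windows, 685 (25.4%, 95% exact interval 23.8 to 27.1, counting error only) overlapped no entry of any wild-type list, against 248 of 3882 (6.39%) on the arms. In the 9 RdDM mutant lists that share ran from 0.15% to 6.76% in the windows. In the ZF108-DMS3 MORC7 list, which shares its date with met1, it was 1.94%. The met1 share fell with distance, from 43.9% within 0.5 Mb to 10.1% at 2.5 to 3 Mb, and lay between 21.2% and 28.4% on each chromosome. Of the 685 peaks, 67.2% overlapped a pseudogene and no coding gene, against 28.9% of met1 window peaks with a wild-type entry. Their median CG density was 26.0 per kb, against 18.5, and their GC content 39.1%, against 32.9%. A peak in an untagged list lay at 26 (3.80%). Their sequence was less unique, with 87.9% of 50-base runs found once against 98.2%, and among peaks of at least 90% the share with no wild-type entry was 17.9%.

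**Figure D4:**
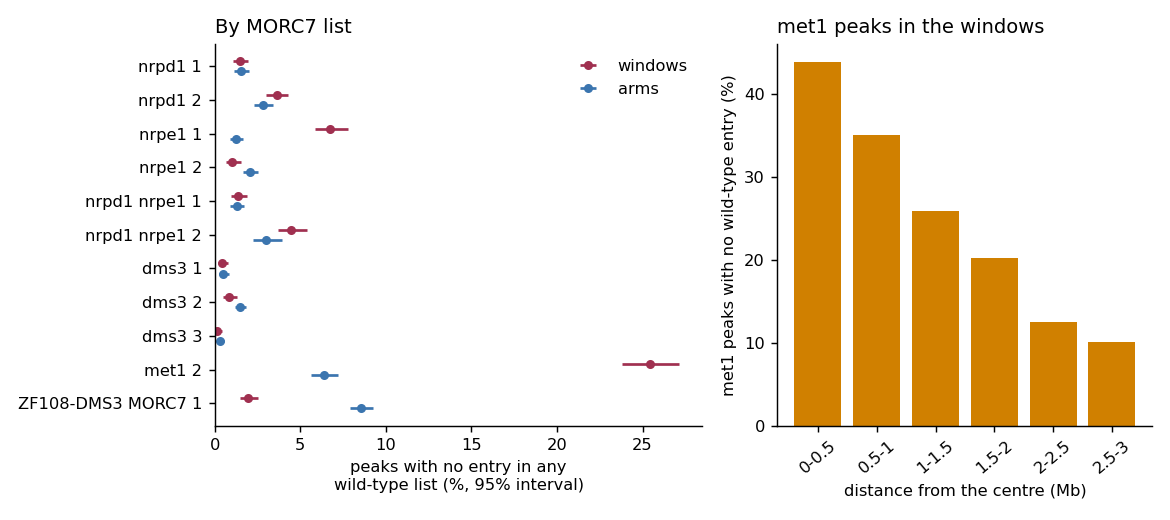
The left plot gives the share of peaks in each MORC7 list that overlap no wild-type entry (%, with 95% exact binomial intervals) in windows and arms, and the right plot that share among met1 window peaks by distance from the centre (Mb). The met1 window value, 25.4%, lies above those of the other MORC7 lists, and it falls from 43.9% to 10.1% outward.

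MORC4, a close relative of MORC7, gave lists of very unequal content. Replicate 1 held a peak at 5.59% of members and 12.3% of arm regions, beside 10.1% of all, and replicate 2 at 74.9% and 39.3%, beside 50.9%. The lists hold 1766 and 7855 peaks, and they go opposite ways between windows and arms. Both held a peak at 97 members, the second alone at 1472, the first alone at 20, and neither at 505. Region 2.2034 on chromosome 2 was the tallest of the 97, at 2.40 and 11.5.

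ZF108-DMS3 is a DMS3 fused to a zinc finger and an HA tag, and its HA list held a peak at 33.2% of members, beside 53.9% of all regions and 63.9% of arm regions. The HA control held 2 members (0.0955%), beside 0.0934% of all regions. HA recovery rose outward, from 15.9% within 0.25 Mb to 42.8% at 2.5 to 3 Mb. MORC7 peaks in the same plants lay at 94.6% of members, beside 91.8% of all. They lay at 98.6% of the 696 members with an HA peak and at 92.6% of the 1398 without, and the median MORC7 fold enrichment was 3.98 and 3.45. The same members also differed in plants without the fusion: medians were 3.32 and 2.91 in wild-type replicate 1 and 4.75 and 4.43 in replicate 3, with 2.91 and 2.88 in replicate 2. Region 3.3537 on chromosome 3, at the protein-coding gene AT3G43432, had an HA value of 6.34, the ceiling of that list, and MORC7 values of 4.94 in those plants and 4.29 and 5.75 in wild-type replicates 1 and 3.

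Pol II peaks were scarce at members. They lay at 10.5% in wild type and 10.9% in hex, beside 26.2% and 24% of all regions. With every deposited entry counted, 271 members had Pol II in both lists, 59 (2.82%) in hex alone, 37 (1.77%) in wild type alone and 1727 in neither. Arm regions went the other way, with 166 (3.83%) in hex alone and 347 (8.01%) in wild type alone. There was 1 library of each, so no test was possible. Members with Pol II in hex alone had a median MORC7 fold enrichment of 4.40, against 3.41 for those with it in both.

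The RNA libraries were checked against their labels before use, and the genes behind the labels did not follow them. In the libraries labelled nrpe1, MORC1 stood at 2.06, 2.04 and 1.77 TPM against 7.99, 7.42 and 8.08 in wild type, and MORC2, MORC6 and MORC7 were also lower (adjusted p from 3.84e-05 to 0.0234, limma). MORC4 was higher there, at 12.35, 12.7 and 13.82 TPM against 4.82, 4.40 and 5.68. In those labelled hex, MORC1 stood at 9.17, 8.31 and 7.70 TPM, while NRPE1 stood at 0.62, 0.51 and 0.50 against 1.74, 1.27 and 1.73, with no overlap and an adjusted p of 0.126 (limma). The groups are therefore named by their labels only. Whether the hex and nrpe1 labels of these libraries were exchanged was not tested. It is thus not known that the RNA libraries labelled hex and the Pol II list of hex share a genotype. The labelled tissue was also not borne out by its markers: the floral genes AP1, AP3 and PI stood at 0 to 0.39 TPM in all 9 libraries, SEP3 at 0.18 to 1.33 and AG at 0.98 to 2.11.

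Genes near members were silent more often than all genes, but pseudogenes near members were not silent more often than all pseudogenes. Of 2597 genes within 1 kb of a member, 39.9% were listed at 0 TPM in all 9 libraries, beside 23.7% of all 33602 genes. Among the 1216 pseudogenes near members it was 56.25%, beside 60.1% of all pseudogenes. Of the 1334 protein-coding genes near members, 51.5% to 52.2% reached 1 TPM in single wild-type libraries, beside 60.8% to 61.5% of all coding genes. Of the 2597 genes, 798 passed the filter of 1 TPM in at least 3 libraries. Of all 6771 genes in the windows 1464 passed, a smaller share than near members. Coding genes passed in 720 of 1334 cases near members and 1345 of 2963 in the windows. For pseudogenes it was 59 of 1216 and 89 of 3673. Against genes of the same windows, genes near members were thus not the more silent ones by this filter. Of the 798, the hex-labelled group had 20 that rose, beside 0.235% of all 17459 genes tested, and 4 fell, beside 0.0859% (adjusted p below 0.05 and 2-fold, limma). The nrpe1-labelled group had 50 that rose, beside 2.31%, and 14 fell, beside 1.63%. In percent, 2.51 and 6.27 of the tested genes near members rose, and near arm regions 14 and 89 of 3676 rose. Among all 1464 genes tested in the windows, near a member or not, 23 (1.57%) and 68 (4.64%) rose. Among the 89 pseudogenes tested in the windows it was 14.6% and 25.8%. Much of the contrast with all genes was therefore shared by the windows as a whole. The median log2 change near members was 0.04 and 0.14, beside 0.02 and 0.08 over all genes. Single libraries moved these counts. Without each library labelled hex in turn, 11, 12 and 11 genes rose in the hex-labelled group. In the nrpe1-labelled group as few as 13 rose without replicate 2 of that label and 14 without its replicate 3. There it was 22 to 27 without a wild-type library and 32 without hex-labelled replicate 2. A gene that was silent in wild type passed the filter only where it was high in another group, and 15 of the 20 and 27 of the 50 were below 1 TPM in every wild-type library. Pseudogenes made up 11 of the 20 and 19 of the 50, and protein-coding genes 7 and 27. Of the 59 pseudogenes tested near members these were 18.6% and 32.2%, beside 7.5% and 15% of the 40 near arm regions. Of the 720 coding genes tested they were 0.972% and 3.75%, beside 0.224% and 2.16% near arm regions. The shares over all classes therefore also reflect the mix of classes. The filter also sets how many pseudogenes are tested. Of all listed pseudogenes, 11 of 1216 near members and 3 of 406 near arm regions rose in the hex-labelled group. In the nrpe1-labelled group it was 19 of 1216 and 6 of 406. Among listed pseudogenes the shares near members and near arm regions were thus close.

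The libraries labelled hex and nrpe1 share the wild-type controls. A gene near members rose in either of them in 61 cases and in both in 9. Tested directly against each other, 10 of the 61 were higher in the hex-labelled group and 19 in the nrpe1-labelled group, beside 0.189% and 0.407% of all genes tested. The 61 were chosen for a rise in 1 or both groups, so these counts are a description. AT4G04223, a non-coding RNA gene that overlaps region 4.4153 and region 4.4154 on chromosome 4, had wild-type levels of 2.54, 5.29 and 2.61 TPM, then 64.83, 61.06 and 81.84 in the hex-labelled group, and 96.4, 101.9 and 105.77 in the nrpe1-labelled group. Its log2 change on the log2(TPM + 1) scale was 4.01 ± 0.21 (SE) in the hex-labelled group (adjusted p = 2.72e-05, limma). In the nrpe1-labelled group it was 4.57 ± 0.21 (adjusted p = 8.79e-06, limma). AT3G30803, a pseudogene at region 3.3387, rose in the libraries labelled hex, to 8.95, 8.17 and 6.11 TPM from at most 0.05 in wild type, and stood at 0.11 to 0.32 in those labelled nrpe1. AT1G36675, a coding gene at region 1.717, rose in those labelled nrpe1, to 29.6, 32.85 and 43.44 TPM from 0.13, 0.20 and 0.38, and stood at 0.35 to 0.91 in those labelled hex.

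**Figure D5:**
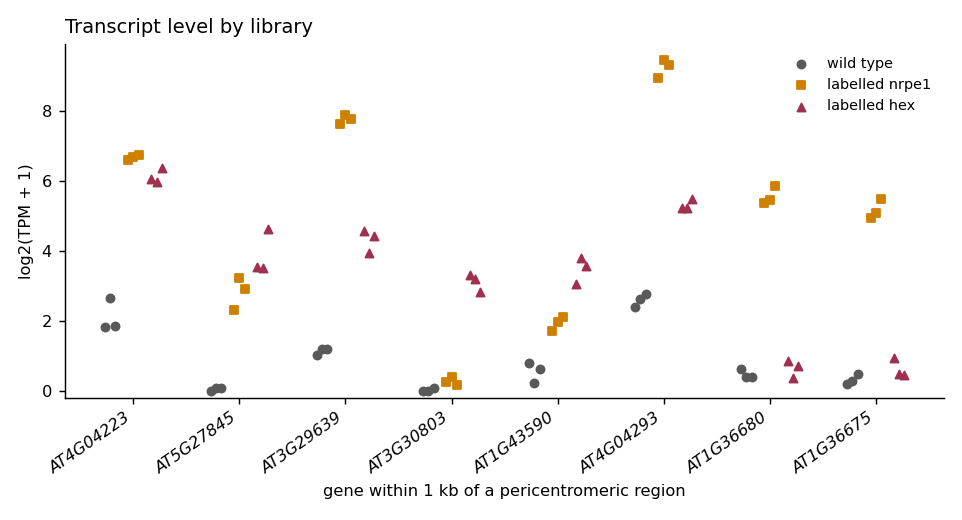
Points give log2(TPM + 1) in each of 3 wild-type libraries (circles), 3 labelled nrpe1 (squares) and 3 labelled hex (triangles), for the genes near a member with the largest rise in either comparison. At AT4G04223 both labelled groups lie above wild type, at AT3G30803 those labelled hex alone stand far above, and at AT1G36675 those labelled nrpe1.

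The member with the tallest Pol II peak in hex alone was also among those with the largest rise in transcript. Region 3.3303 (chr3:11476263-11487368) had a Pol II fold enrichment of 4.84 in hex and no entry in wild type, and MORC7 values of 5.83, 5.02 and 6.60 in wild type, 6.50 to 18.7 in the RdDM mutants and 5.84 in met1. It contains AT3G29639, which had wild-type levels of 1.04, 1.29 and 1.27 TPM, with 195.04, 233.24 and 215.57 in the nrpe1-labelled group, and 22.48, 14.17 and 20.57 in the hex-labelled group. No groups overlapped. The log2 change was 3.17 ± 0.16 (SE) in the hex-labelled group (adjusted p = 1.68e-05, limma). In the nrpe1-labelled group it was 6.61 ± 0.16 (adjusted p = 1.27e-07, limma). Region 5.5746 on chromosome 5, with Pol II at 4.11 in hex alone, contains AT5G35480, which had wild-type levels of 60.55, 61.11 and 63.96 TPM, with 696.65, 582.84 and 677.17 in the nrpe1-labelled group, and 35.71, 35.95 and 40.42 in the hex-labelled group. Of 61 tested genes near the 59 members with Pol II in hex alone, 6 (9.84%) rose in the hex-labelled group and 11 (18.0%) in the nrpe1-labelled group, beside 2.51% and 6.27% near all members and 0.235% and 2.31% of all genes tested. The filter on low values bears on these shares as it does above.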

How the data were processed

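ChIP-seq peak lists of 22 libraries and RNA-seq values of 9 libraries, of 47 labelled samples, were used; the other samples were not analysed here. The authors used Bowtie2 2.1.0 to place reads on TAIR10, keeping those with 1 perfect position, SAMtools 1.9 to drop duplicates, and MACS2 2.1.1 for the peaks. The deposited lists give for each peak the fold enrichment over background, a ratio, and its q-value as −log10. The control and options of each call are not given in the sources used here. The authors deposited transcript levels as TPM per gene; the counter used for these libraries is not given. The deposited table of nrpe1 replicate 2, recorded as a score because it holds its TPM values more than once, was read from its first block only. Depth is unknown, so intervals cover counting error over regions only.

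Lists were thresholded at q below 0.01 and fold enrichment above 2, and an overlap of 1 bp counted. The reference annotation is RefSeq TAIR10.1, and no deposited peak ran past its chromosome ends. Of 33602 gene identifiers, 32835 matched it. TPM were tested with limma 3.58.1 in R 4.3.3 on log2(TPM + 1) over 9 libraries, with Benjamini-Hochberg adjustment; recovery was tested by exact permutation over libraries in Python 3.11.15 with scipy 1.17.1. Statistics were tested on simulated data first. Dates in peak names and the form of the lists served as batches. Members and gene lists were chosen with earlier results of these data known. Named regions were the nearest to each centre, the 5 tallest in wild type, the 3 highest for Pol II in hex alone, HA and MORC4, and, among members in all 9 RdDM mutant lists, the 3 highest in met1 and the 3 tallest without a met1 entry; named genes were the 5 with the largest rise in each comparison, not all of which are described. AT5G35480 and AT3G30122 are described because they lie at named regions. Alternatives covered thresholds, windows, overlap, widths, list length, filters, pseudocount, normalization, pairing and leaving out each library.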

Additional observations from a re-analysis of the deposited data

Results flagged for a closer look

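Of the 61 genes near pericentromeric regions that rose in the libraries labelled hex or nrpe1, 10 were higher in those labelled hex and 19 in those labelled nrpe1 when the labelled groups were tested against each other (limma, adjusted p below 0.05 and 2-fold). They are listed because their change from wild type differed between the labelled groups. The 61 were chosen for a rise in 1 or both groups. Of the 20 that rose in the hex-labelled group, 15 were below 1 TPM in every wild-type library. The same held for 27 of the 50 in the nrpe1-labelled group. The counts are therefore a description and no test of these genes. Over all 17459 genes tested, 0.189% were higher in the hex-labelled group and 0.407% in the nrpe1-labelled group.

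In the 10 measures looked at over the 9 RdDM mutant libraries, no library lay far enough from the others to stand out.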

How the results depend on the processing

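The excess of pericentromeric over arm recovery in the RdDM mutants kept its direction and passed the test under all 21 alternatives, from 15.5 to 33.6 points. Mutants against wild type depended on the threshold: at q below 0.001 and fold enrichment above 3, the difference in excess was 13.4 points (p = 0.0227), that in window share 8.11 points (p = 0.0409) and that in log2 height ratio 0.24 (p = 0.0409), all exact permutation; the cause was not tested. Other settings made them smaller: with 2000 peaks per library the excess was 9.79 points (p = 0.327) and member recovery 4.64 points (p = 0.605), the window share was 7.43 points with 2 Mb windows (p = 0.114), and the height ratio was 0.12 for regions of 500 to 1500 bp (p = 0.459) and 0.18 with all deposited peaks (p = 0.436), all exact permutation. Leaving out 1 library gave 9.76 to 22.0, 6.86 to 16.6 and 0.18 to 0.38, and −3.62 to 18.1 for member recovery. With the replicate block these were 13.2, 9.70, 0.23 and 9.73, and no call changed. For the comparisons with wild type, a wild-type library left out still helped to define the region sets, which the window share does not use. The difference of met1 recovery became 2.65 at the stricter threshold, −7.89 with all deposited peaks, 3.92 with 2 Mb windows, −13.1 for regions of 500 to 1500 bp, 12.4 with 2000 peaks per library and −1.33 to 6.16 without 1 wild-type library. Genes higher in libraries labelled hex numbered 11 to 22 without 1 library and 21 with the replicate block. Those labelled nrpe1 numbered 26 with no filter, 33 with the 6 libraries compared only, 177 with no minimum fold, 33 near regions in all 3 lists, 13 to 58 without 1 library and 52 with the replicate block. In their deviations from group means, RNA libraries of 1 number correlated from −0.35 to 0.60. Between the nrpe1-labelled and hex-labelled groups the values were 0.60, −0.35 and 0.41 for numbers 1, 2 and 3. Whether the numbers pair the libraries cannot be decided from so few values. Chosen after seeing the data, the share of met1 window peaks with no wild-type entry was 20.3% at the stricter threshold and 17.9% in unique sequence. Regions in all 3 lists were not run for the comparisons of recovery and height with wild type.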
